A study of Homo sapiens with 15 samples.

Results

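KRT7, the simple keratins KRT8, KRT18 and KRT19, and vimentin (VIM) are 5 intermediate filament genes among the 18417 genes measured. KRT7 was chosen by its measured values, because it had lain among the genes with the lowest signal in exosome-exposed against untreated endothelial cells. The other members were added as its family partners and as the filament gene of endothelial cells. Each gene is represented by its brightest probeset, by the mean over all arrays, among probesets that the platform annotation gives exactly 1 symbol. All 5 members had such a probeset.

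RNA was hybridised to Affymetrix whole-transcript arrays, 15 in all, in 5 groups of 3. HUVEC are endothelial cells of the human umbilical vein, which the labels describe as a cell line without naming donors or pools. The HUVEC groups were untreated cells, cells kept with exosomes from Jurkat (JK) for 6 h, and cells kept with exosomes from JinB8 (JINB8) for 6 h. Jurkat is a human T cell leukaemia line that carries CD47, and JinB8 is its mutant without CD47, a receptor of thrombospondin and ligand of SIRPA. The remaining groups were RNA of JK exosomes (CD47+) and RNA of JINB8 exosomes (CD47-), with vesicles precipitated from the medium of T cells grown in human serum. JINB8 is a single mutant line, so CD47 and any other difference between the lines cannot be told apart. Replicates are not described as separate cultures, so every p-value reflects the scatter of these arrays, which may be technical, and 3 arrays a group limit the precision.

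Intermediate filaments are rope-like polymers that give cells mechanical strength. Keratins form them as obligate pairs of a type I and a type II chain. KRT7 and KRT8 are type II chains, KRT18 and KRT19 are type I chains, and together they are the keratins of simple, single-layered epithelia and of mesothelium. KRT8 and KRT18 are the usual partners of each other. KRT7 marks ducts, glands and mesothelium and is used in pathology to place tumours. VIM encodes a type III filament that assembles without a partner and is abundant in mesenchymal cells, leukocytes and endothelium. In the RefSeq annotation of GRCh38.p14 the KRT8 and KRT18 genes are neighbours on chromosome 12, with a microRNA gene as the single entry between them.

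The untreated arrays stood at a level of their own, and this touches every comparison with them. The median log2 signal of the 18417 genes averaged 7.43 ± 0.014 (SD, n = 3) in untreated HUVEC, 5.64 ± 0.028 with JK exosomes and 5.59 ± 0.024 with JINB8 exosomes. It was 5.20 ± 0.028 in JK exosome RNA and 5.20 ± 0.0082 in JINB8 exosome RNA. As deposited, the median gene was therefore lower by 1.68 (JK) or 1.71 (JINB8) log2 units in exposed than in untreated cells. Whatever set the untreated arrays apart and the exposure itself cannot be told apart. Differences from untreated cells are given after quantile normalization over the 9 HUVEC arrays, which gives every array the same distribution, with the deposited values and 2 further scalings beside them. No calls of presence on the array were used here, so a low signal could not be set against background. As usual in bulk RNA, fewer cells that express a gene and less of its RNA per cell cannot be told apart. Of 14 endothelial markers, 13, 13 and 12 were brighter than 80% of genes in untreated, JK-exposed and JINB8-exposed HUVEC, and 3 were in either exosome RNA.

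KRT7 had the widest gap between untreated and exposed cells of the 5 members. Its deposited log2 signal was 10.99, 10.58 and 10.71 on the untreated arrays. It was 5.42, 5.31 and 4.91 with JK exosomes and 4.98, 4.52 and 4.95 with JINB8 exosomes. All 3 untreated values lay above all 6 exposed values, with no overlap. On this scale limma called 18289 (JK) and 18252 (JINB8) of the 18417 genes lower in exposed cells (adjusted p under 0.05). Lower deposited values in exposed cells are thus not particular to KRT7 or to the other members. In exosome RNA the KRT7 signal was 5.16, 5.26 and 4.92 for JK and 5.32, 4.86 and 4.95 for JINB8, which overlaps the values of exposed HUVEC. The group means ran from 10.76 ± 0.21 in untreated HUVEC through 5.21 ± 0.27 (JK-exposed), 5.11 ± 0.17 (JK exosome RNA) and 5.05 ± 0.24 (JINB8 exosome RNA) to 4.82 ± 0.26 (JINB8-exposed; SD, n = 3 each). In this order the step below untreated HUVEC was the single one whose neighbours did not overlap.

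The place of KRT7 among all genes of the same array does not depend on the level of that array. It does depend on how widely the signals spread, and they spread less in exosome RNA than in HUVEC. The lower and upper deciles of genes were 3.71 and 6.45 on JK exosome RNA replicate 1, against 4.88 and 10.13 on untreated HUVEC replicate 1. On average 95.2% ± 0.82 of genes (SD, n = 3) had a lower signal than KRT7 in untreated HUVEC, but 42.8% ± 4.3 after JK exosomes and 37.1% ± 4.1 after JINB8 exosomes. In exosome RNA the share was 47.1% ± 5.2 for JK and 44.7% ± 8.2 for JINB8. The gene thus sat near the top of the arrays in untreated cells and below the middle in both exposed groups.

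**Figure D1:**
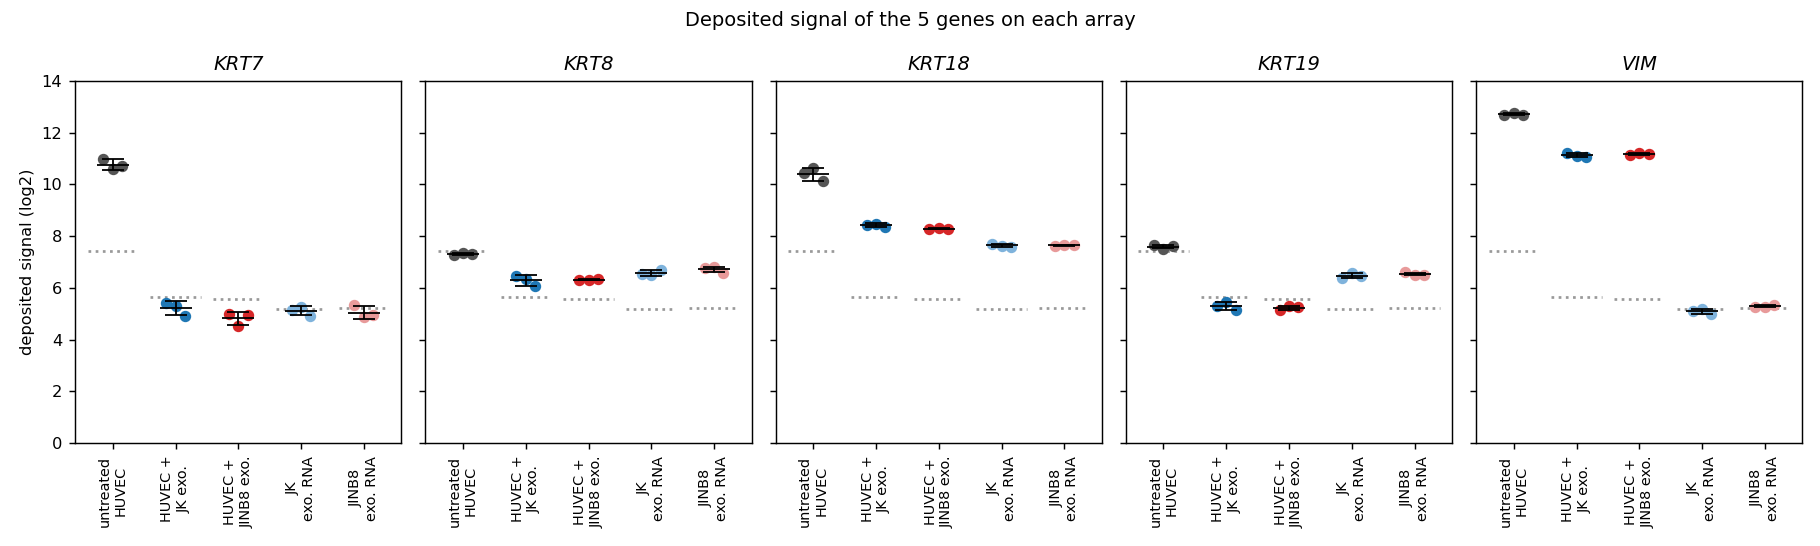
Deposited log2 signal of KRT7, KRT8, KRT18, KRT19 and VIM (a panel each) on each of the 15 arrays; points are arrays, bars the mean and SD of 3 arrays, and dotted lines the median of all genes in that group. KRT7 falls from well above the dotted line in untreated HUVEC to just below it in both exposed groups, and VIM stays far above it in HUVEC and lies on it in exosome RNA.

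KRT8, the type II partner of KRT18, changed direction with the scale. Its deposited log2 signal was 7.27, 7.34 and 7.30 in untreated HUVEC, 6.45, 6.36 and 6.07 with JK exosomes and 6.31, 6.31 and 6.34 with JINB8 exosomes. The untreated arrays were the highest without overlap, but by less than the shift of the median gene. Among all genes of its array KRT8 moved the other way: 47.7% ± 0.63 of genes (SD, n = 3) were dimmer in untreated cells, against 60.6% ± 2.9 and 61.9% ± 0.099 in the JK-exposed and JINB8-exposed cells. In exosome RNA the deposited signal was 6.54, 6.49 and 6.70 for JK and 6.77, 6.79 and 6.59 for JINB8. These arrays overlapped each other, lay below every untreated array and above every exposed one, and placed KRT8 above 92.6% ± 2.1 and 94.1% ± 1.3 of genes.

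KRT18, the type I partner of KRT8, was bright in every group. Its deposited log2 signal was 10.43, 10.64 and 10.14 in untreated HUVEC, 8.45, 8.49 and 8.35 with JK exosomes and 8.29, 8.32 and 8.27 with JINB8 exosomes. Neither exposed group overlapped the untreated one, and every JINB8-exposed array was below every JK-exposed array. Exosome RNA was lower still on this scale, at 7.70, 7.63 and 7.59 for JK and 7.62, 7.65 and 7.67 for JINB8, with overlapping values. By place on the array the order was different: KRT18 exceeded 93.0% ± 1.5 of genes (SD, n = 3) in untreated, 89.2% ± 0.80 in JK-exposed and 87.8% ± 0.23 in JINB8-exposed HUVEC, but 99.2% ± 0.040 in JK and 99.0% ± 0.020 in JINB8 exosome RNA.

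KRT19, a type I keratin that lacks most of the tail found in other keratins, was near the middle of the arrays in HUVEC. Its deposited log2 signal was 7.65, 7.52 and 7.61 in untreated cells, 5.30, 5.45 and 5.16 with JK exosomes and 5.14, 5.29 and 5.26 with JINB8 exosomes. The untreated arrays were apart from the exposed ones, and the exposed groups overlapped each other. Exosome RNA gave 6.39, 6.57 and 6.47 for JK and 6.60, 6.50 and 6.51 for JINB8, between the untreated and the exposed cells. On average 53.5% ± 1.3 of genes (SD, n = 3) were dimmer than KRT19 in untreated HUVEC, 44.3% ± 1.9 and 43.9% ± 1.3 in JK-exposed and JINB8-exposed HUVEC, with 90.9% ± 1.9 (JK) and 91.7% ± 0.72 (JINB8) in exosome RNA.

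VIM, the filament gene typical of endothelium, separated cell RNA from vesicle RNA. Its deposited log2 signal was 12.70, 12.76 and 12.69 in untreated HUVEC, 11.21, 11.10 and 11.07 with JK exosomes and 11.12, 11.23 and 11.19 with JINB8 exosomes. It was 5.11, 5.18 and 4.99 in JK exosome RNA and 5.27, 5.27 and 5.35 in JINB8 exosome RNA. Every HUVEC array was far above every exosome array, and the exposed groups overlapped each other. In each of the 3 HUVEC groups VIM was brighter than over 99% of genes: 99.8% ± 0.039 (SD, n = 3) in untreated, 99.4% ± 0.041 in JK-exposed and 99.4% ± 0.041 in JINB8-exposed cells. In exosome RNA that share was 46.3% ± 2.4 for JK and 53.4% ± 2.0 for JINB8, so that VIM lay near the middle of those arrays.

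**Figure D2:**
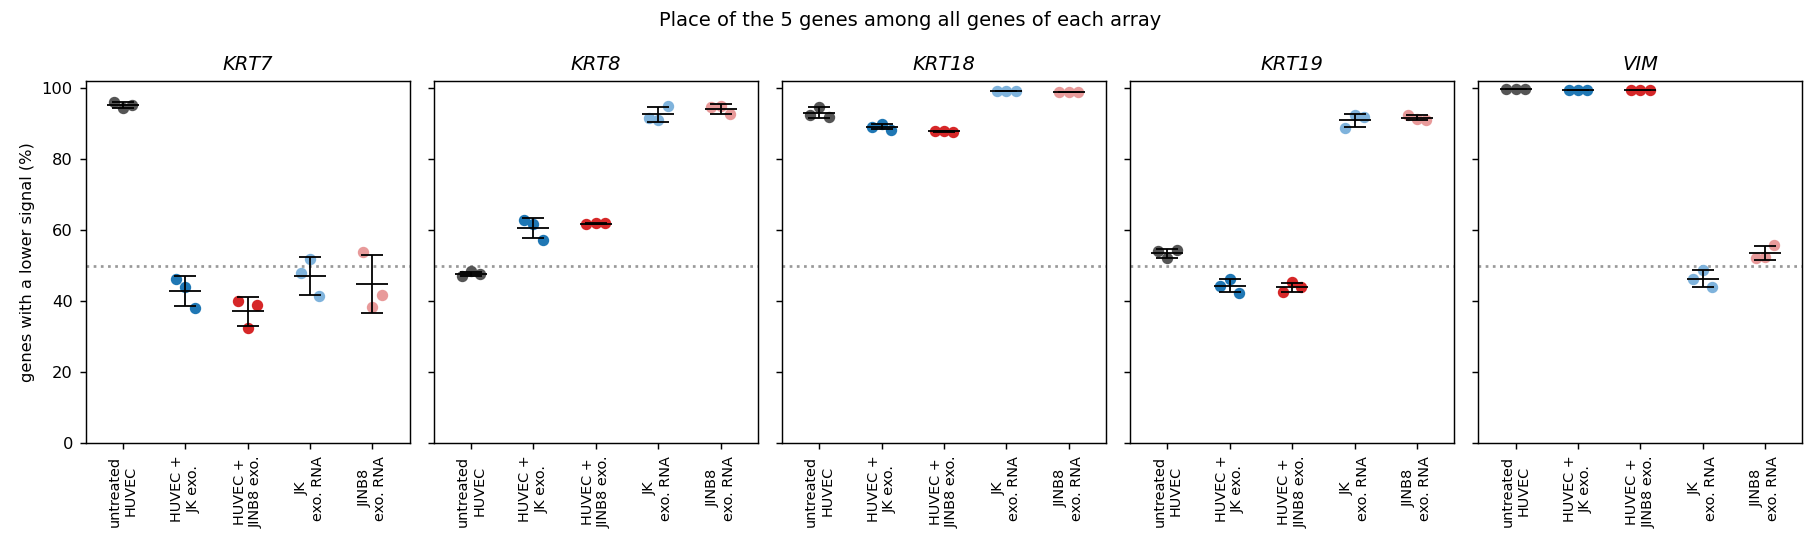
Percent of the 18417 genes with a lower signal than each member on the same array; points are arrays, bars the mean and SD of 3, and the dotted line marks the middle gene. KRT8, KRT18 and KRT19 sit highest in exosome RNA, KRT7 in untreated HUVEC alone, and VIM in all 3 HUVEC groups. Signals spread less on exosome RNA arrays than on HUVEC arrays, so a higher place there does not mean a higher signal. KRT18, at a mean log2 of 7.64, exceeded 99.2% of genes in JK exosome RNA, and at 10.41 it exceeded 93.0% in untreated HUVEC.

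On the deposited scale untreated HUVEC had the highest group mean for all 5 members. After quantile normalization over all 15 arrays this held for 2 of the 5, KRT7 and VIM, and the exosome RNA groups were highest for KRT8, KRT18 and KRT19. With that normalization KRT8 averaged 8.45 ± 0.17 in JINB8 and 8.27 ± 0.26 in JK exosome RNA, against 5.71 ± 0.028 in untreated HUVEC. The array-median scale gave another order: KRT18 was highest in untreated HUVEC (2.98 ± 0.24 above the median, 2.44 ± 0.032 in JK and 2.44 ± 0.031 in JINB8 exosome RNA), and VIM in JINB8-exposed HUVEC (5.59 ± 0.059, against 5.29 ± 0.038 in untreated cells). The keratins beyond these members stood higher in exosome RNA than in HUVEC by place on the array. By deposited signal untreated HUVEC was above exosome RNA, and both exposed groups were below exosome RNA. The mean over 26 other type I keratins was 5.72 to 5.95 on untreated arrays and 5.26 to 5.35 on exosome RNA arrays. It was 4.06 to 4.19 on JK-exposed and 4.12 to 4.15 on JINB8-exposed arrays. Over 18 other type II keratins these ranges were 6.32 to 6.59, 5.44 to 5.52, 4.49 to 4.64 and 4.37 to 4.54. Over 44 other keratins the median gene exceeded 27.6% of genes in untreated HUVEC (range 0.657% to 47.8%), 27.6% in JK-exposed and 26.5% in JINB8-exposed HUVEC. In exosome RNA it exceeded 56.6% (JK) and 54.9% (JINB8) of genes. Of the 44 keratins 11 lay above 80% of genes in either kind, where 20% of all genes lie by definition. A higher place there was not particular to keratins. The mean place of 16 epithelial and mesothelial markers was 28.4% to 30.1% on untreated and 53.6% to 55.0% on JK exosome RNA arrays. For 14 endothelial markers it went the other way, at 92.3% to 93.1% and 50.0% to 52.6%. So did that of 16 mesenchymal transition genes.

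The comparison with untreated HUVEC asks how exposed cells differed from untreated ones. In what follows, rose and fell name the sign of that difference and not its cause. The members' values there chose KRT7, so the differences are descriptions and carry no test. Both exposed groups are set against the same 3 untreated arrays, so the JK and JINB8 values are not independent of each other.

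On quantile-normalized values KRT7 was lower than in untreated cells by 16.1-fold with JK exosomes (log2 difference -4.01 ± 0.15, SE from limma, n = 3 per group) and by 20.2-fold with JINB8 exosomes (-4.33 ± 0.15). In either comparison this was the 4th lowest difference of the 18417 genes. As deposited the differences were -5.55 and -5.94, of which the median gene accounted for -1.68 and -1.71. Median centring gave -3.76 and -4.10, and cyclic loess -3.90 and -4.26. Leaving out any single HUVEC array kept the quantile-normalized difference between -4.14 and -3.85 for JK and between -4.47 and -4.17 for JINB8.

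KRT8 was higher than in untreated cells after quantile normalization, by 0.75 ± 0.09 log2 units with JK exosomes and 0.82 ± 0.09 with JINB8 exosomes. Median centring (0.77 and 0.85) and cyclic loess (0.68 and 0.76) gave the same direction. The deposited values had the opposite sign, -1.01 and -0.98, a smaller drop than that of the median gene.

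KRT18 was lower by 0.51 ± 0.11 with JK exosomes and by 0.66 ± 0.11 with JINB8 exosomes in log2 units after quantile normalization. Cyclic loess gave -0.56 and -0.71, whereas median centring gave -0.19 and -0.28 with groups that overlapped. KRT19 differed from untreated cells by -0.52 ± 0.09 and -0.54 ± 0.09, with values between -0.53 and -0.47 under median centring and cyclic loess.

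VIM differed by -0.52 ± 0.07 with JK exosomes and by -0.47 ± 0.07 with JINB8 exosomes in log2 units after quantile normalization, and by -0.47 and -0.44 after cyclic loess. Median centring turned the sign, to 0.19 and 0.30. VIM ranked 34 to 48 from the top on the untreated arrays, 108 to 123 on the JK-exposed and 99 to 114 on the JINB8-exposed arrays. Quantile normalization sets the value by these ranks, and cyclic loess gave the same sign. As deposited the differences were -1.59 and -1.54, a smaller drop than that of the median gene. The direction of VIM thus rests on the scale, and why was not tested.

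**Figure D3:**
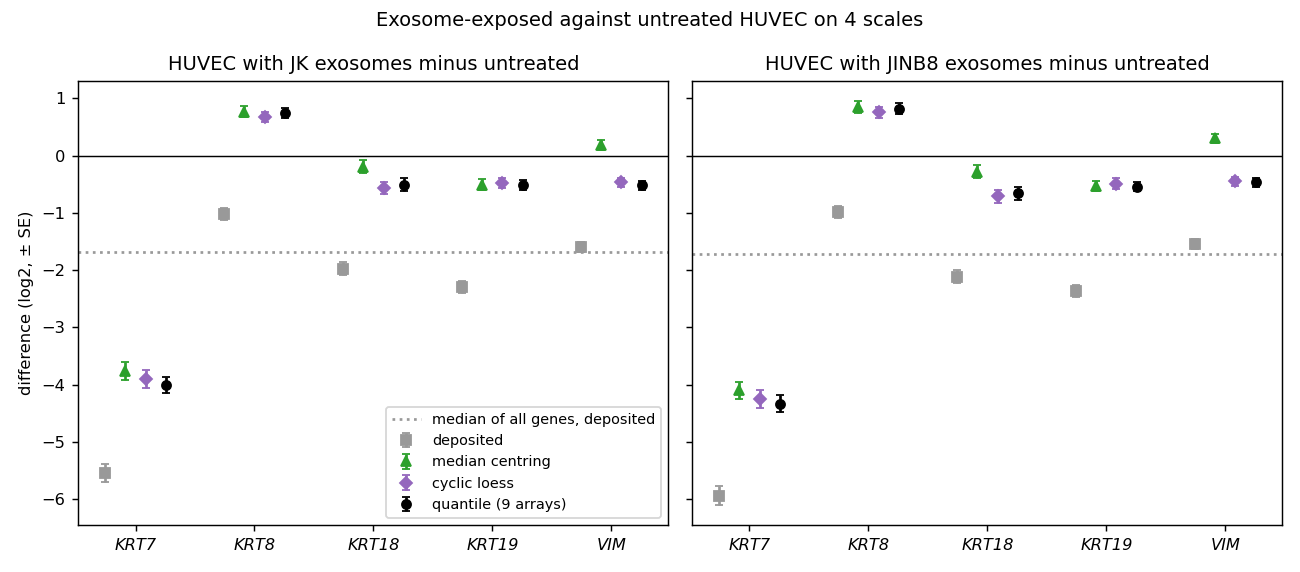
Difference of exposed from untreated HUVEC (log2, ± SE of limma, 3 arrays per group) for each member on 4 scales, with JK exosomes at left and JINB8 exosomes at right; the dotted line is the median gene on the deposited scale. KRT7 lies between -5.94 and -3.76 on every scale, and KRT8 and VIM lie on both sides of 0 depending on the scale.

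In the limma fit over all genes 48.6% of them had an adjusted p under 0.05 for JK-exposed against untreated HUVEC, 26.2% higher and 22.4% lower. For JINB8-exposed cells it was 49.3%, with 26% higher and 23.3% lower. The split depends on the scale: 4829 genes were higher and 4121 lower with JK exosomes here, against 6462 and 3587 after median centring and 30 and 18289 as deposited. With JINB8 exosomes the same counts were 4791 and 4283, 7025 and 3450, and 34 and 18252. For the members only directions are given, without a test, since their choice used these contrasts. On the quantile-normalized scale 1 member (KRT8) was higher and 4 were lower in each comparison. As deposited 0 were higher and 5 lower. After median centring KRT8 and VIM were higher and KRT7, KRT18 and KRT19 lower in each comparison, with KRT18 groups that overlapped. The median of the members was -0.52 (JK) and -0.54 (JINB8) in log2 units, and that of all genes was 0.02 in both.

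Genes with the profile most like that of each member over the 9 HUVEC arrays are given as a description. Likeness was the root mean square distance between mean-centred, quantile-normalized log2 profiles. The genes nearest to KRT7 were CCNA1, a cyclin, at 0.191, FST, the activin-binding follistatin, at 0.232, CHRNA1, a subunit of the muscle acetylcholine receptor, at 0.237, HEY2, a transcriptional repressor, at 0.26 and CYTL1, a secreted protein, at 0.275. CCNA1 differed from untreated cells by -3.90 (JK) and -3.97 (JINB8). Few genes can lie near KRT7 by this measure, because it was chosen for an extreme difference: 95 genes with JK and 106 with JINB8 exosomes had differences below -2. The nearest to KRT8 were TRIP11, SPIN4 and ELMOD3 (0.0435 to 0.0507), to KRT18 FAM50A, TMEM204 and TMEM70 (0.058 to 0.0733), to KRT19 ZDHHC5, SS18 and ARHGDIA (0.044 to 0.0498), and to VIM CERS6, SMURF1 and ENTPD7 (0.0301 to 0.0413). Within a distance of 0.2 lay 1561 genes for KRT8, 1811 for KRT18, 3434 for KRT19 and 4208 for VIM, against 1 for KRT7. Short distances to these 4 members are thus common and do not single out the genes named.

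The other genes of the family are described by list. Since KRT7 was chosen for its low values in these contrasts, its distance from the other keratins follows from the choice. The lists described here were written with earlier results of these data known, and directions are relative to the array-wide shift, because each keratin named below was lower as deposited. By the same calls 26.2% of all genes rose and 22.4% fell with JK exosomes, and 26% rose and 23.3% fell with JINB8 exosomes. Each list count below is to be set beside these shares. Among 26 other type I keratins 5 rose and 0 fell with JK exosomes, and 6 rose and 2 fell with JINB8 exosomes, with medians of 0.03 and 0.11. After median centring 6 rose and 2 fell with JK, and 7 rose and 3 fell with JINB8 exosomes. The largest rises were those of KRT24 (0.54 ± 0.11 and 0.44 ± 0.11; limma adjusted p = 0.00218 and 0.00746), KRT38, a hair keratin (0.52 and 0.49), and KRT13, a keratin of stratified mucosa (0.48 and 0.36). KRT33B and KRT32, also hair keratins, fell with JINB8 exosomes (-0.32 and -0.27), KRT33B not under cyclic loess.

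Of 18 other type II keratins 2 rose and 3 fell with JK exosomes, and 2 rose and 4 fell with JINB8 exosomes (medians 0.11 and -0.07). KRT80 fell, with differences of -0.61 ± 0.09 and -0.62 ± 0.09 (limma adjusted p = 0.000207 and 0.000169), as did KRT85, a hair keratin, at -0.60 and -0.73, and KRT78 at -0.34 and -0.33. KRT72 (0.33 and 0.40) and KRT71 (0.32 and 0.33), keratins of the hair root sheath, rose, but not under median centring, where 0 rose and 4 (JK) or 6 (JINB8) of the list fell.

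Other filament genes moved by less than 1 log2 unit. Among 11 cytoplasmic members outside the keratins and VIM, 1 rose and 2 fell with JK exosomes and 2 rose and 1 fell with JINB8 exosomes (medians 0.11 and 0.13). NES, the nestin gene, whose product assembles together with vimentin, fell, with differences of -0.49 ± 0.10 and -0.52 ± 0.10 (limma adjusted p = 0.00143 and 0.000948). SYNM (synemin) fell with JK exosomes (-0.24, not under median centring), INA, a neuronal filament gene, rose (0.52 and 0.80, the first not under median centring), and DES (desmin) rose with JINB8 exosomes (0.28, not under median centring). Of the 3 lamin genes, which encode the filaments of the nuclear envelope, LMNA fell, with differences of -0.88 ± 0.08 and -0.98 ± 0.08 (limma adjusted p = 7.85e-06 and 3.34e-06) and LMNB1 also fell, at -0.39 and -0.54. LMNB2 was not past the threshold at -0.13 and -0.20.

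Among 20 genes that link filaments to other structures or build desmosomes, 4 rose and 7 fell with JK exosomes, and 5 rose and 5 fell with JINB8 exosomes (medians -0.18 and -0.14). After median centring 4 rose and 5 fell with JK, and 6 rose and 3 fell with JINB8 exosomes. PLEC, the plectin gene, whose product tethers vimentin and keratin filaments, fell, with differences of -0.61 ± 0.09 and -0.77 ± 0.09 (limma adjusted p = 0.000297 and 5.32e-05). SYNC fell with JK exosomes (-0.58), and DSP, the desmoplakin that anchors filaments at junctions, fell, with differences of -0.32 and -0.37. JUP (plakoglobin) fell, with differences of -0.49 and -0.27, but median centring gave -0.07 and 0.24. PKP4 (0.69 ± 0.08 and 0.61 ± 0.08), DST (0.66 and 0.76) and DSC2 with JINB8 exosomes (0.37, not under cyclic loess) rose, as did DSG2 with JK exosomes (0.39).

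**Figure D4:**
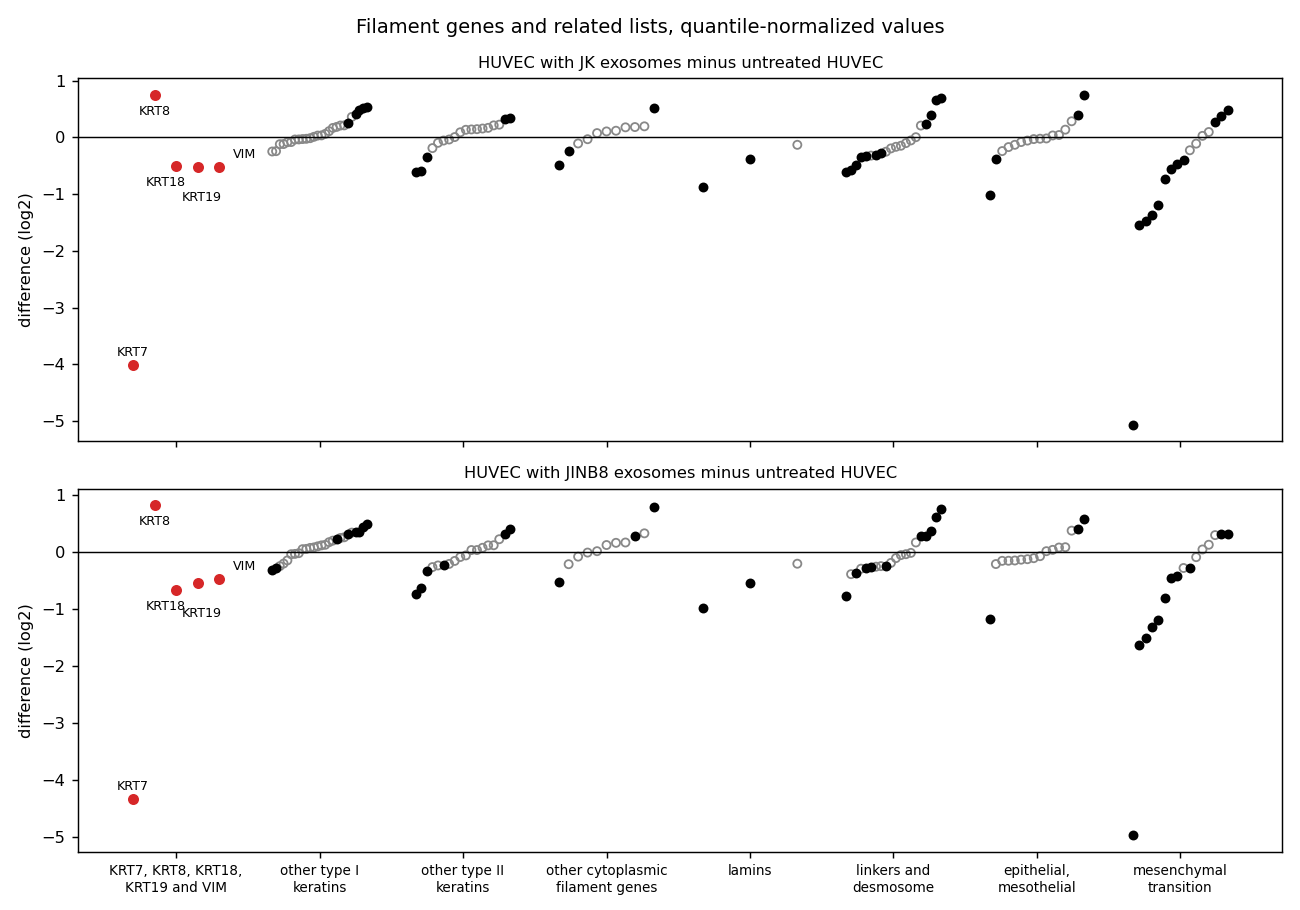
Difference of exposed from untreated HUVEC (log2, quantile-normalized over 9 arrays) for the 5 members (red) and for the genes of 7 lists, each sorted by its value; filled black points passed limma's adjusted p of 0.05 and open points did not, and the members carry no test. The list genes lie between -1.64 and 0.80, apart from TAGLN, the lowest point of the mesenchymal list, and KRT7, chosen for its low values, is the lowest red point.

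Markers of epithelium and mesothelium, the tissues where these keratins are most abundant, were mostly below the middle of the HUVEC arrays. The exceptions were CLDN3, brighter than 63.0%, 67.6% and 69.0% of genes in untreated, JK-exposed and JINB8-exposed cells, and CLDN7, brighter than 53.7% in untreated cells. None of the 16 measured was brighter than 80% of genes in untreated, JK-exposed or JINB8-exposed HUVEC, and their mean log2 signal over the list ran from 6.15 to 6.38 on untreated, 4.35 to 4.43 on JK-exposed and 4.31 to 4.39 on JINB8-exposed arrays. The log2 signals have no zero, so no marker can be called absent. With JK exosomes 2 rose and 2 fell, and with JINB8 exosomes 2 rose and 1 fell (medians -0.03 and -0.09). After median centring 2 rose and 4 fell with JK, and 3 rose and 4 fell with JINB8 exosomes. CLDN7, a tight junction claudin, fell, with differences of -1.02 ± 0.12 and -1.18 ± 0.12 (limma adjusted p = 3.82e-05 and 1.25e-05), and MUC1 fell with JK exosomes (-0.37). MSLN, the mesothelin gene, rose by 0.74 and 0.59, and CLDN4 by 0.39 and 0.40, with JK exosomes not under median centring. Any part of epithelial or mesothelial cells in the KRT7 signal of untreated HUVEC was not tested.

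Genes of mesenchymal transition, the list in which VIM is a customary marker, fell more often than they rose. Among all genes 26.2% rose and 22.4% fell with JK, and 26% rose and 23.3% fell with JINB8 exosomes. Of the 16 in the list, 3 rose and 9 fell with JK exosomes, and 2 rose and 9 fell with JINB8 exosomes, with medians of -0.43 and -0.35. After median centring 3 rose and 8 fell with JK, and 4 rose and 8 fell with JINB8 exosomes. TAGLN, an actin-binding protein of smooth muscle, fell furthest (-5.06 ± 0.10 and -4.96 ± 0.10; limma adjusted p = 1.38e-10 and 2.13e-10), followed by the transcription factor SNAI2 (-1.55 and -1.64) and the proteoglycan VCAN (-1.47 and -1.51). The adjusted p-values of TAGLN were the smallest of all genes in either comparison, and the list was written with earlier results known. S100A4 rose with JK exosomes (0.49, not under median centring). ACTA2 (0.38 and 0.32, the second not under cyclic loess) and TWIST1 (0.28 and 0.33) rose with both.

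JK and JINB8 exosomes differ in the CD47 status of the cells that made them, and the comparison of HUVEC exposed to each asks whether that matters for the response. These contrasts did not choose the members, so they were tested, on the deposited values. With limma 0 of the 18417 genes (0%) passed an adjusted p of 0.05, 1678 had an unadjusted p under 0.05, and the smallest adjusted p was 0.0644. Other settings called up to 23 genes (limma with a variance trend and robust fitting), and leaving out 1 array called up to 3. No member passed under any of these settings.

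KRT7 was lower with JINB8 than with JK exosomes by 0.40 log2 units (difference -0.40, SE 0.16, 95% interval -0.74 to -0.05, limma adjusted p = 0.494), with 1 JK-exposed array, at 4.91, inside the range of the JINB8-exposed arrays. Leaving out single arrays gave -0.549 to -0.247, with adjusted p from 0.166 to 0.985. KRT18 differed by -0.14 (SE 0.12, interval -0.39 to 0.11, adjusted p = 0.767 in limma) with groups that did not overlap as deposited. After median centring they overlapped, with a difference of -0.08. KRT8 differed by 0.03 (interval -0.19 to 0.25, limma adjusted p = 0.955), KRT19 by -0.07 (-0.29 to 0.14, 0.865) and VIM by 0.06 (-0.13 to 0.24, 0.877), each with overlapping groups. The intervals reach as far as -0.74 for KRT7 and no farther from 0 than -0.39 for the other members. For any single gene, exact two-sided permutation of 3 against 3 arrays yields no p under 0.1, the value that groups without overlap give. The share of all genes without overlap was not counted.

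In RNA of the exosomes themselves 0.679% of genes passed the threshold between JINB8 and JK (125 genes, 123 of them higher in JINB8), and 0 of the 5 members did. That count was 54 without JK exosome RNA replicate 3, 77 without JINB8 replicate 2 and 59 without JINB8 replicate 3, again with no member. VIM had the largest difference of the members: it was higher in JINB8 by 0.20 (SE 0.08, 95% interval 0.03 to 0.37, limma adjusted p = 0.462), with all 3 JINB8 arrays above all 3 JK arrays. The share of all genes with such a separation was not counted here either. KRT8 differed by 0.14 (interval -0.05 to 0.33, limma adjusted p = 0.763), KRT19 by 0.06 (-0.11 to 0.23, 0.93) and KRT7 by -0.07 (-0.33 to 0.20, 0.957). KRT18 differed by 0.0043 (-0.15 to 0.16, limma adjusted p = 0.997). The values of these 4 keratins overlapped between the vesicle types.

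**Figure D5:**
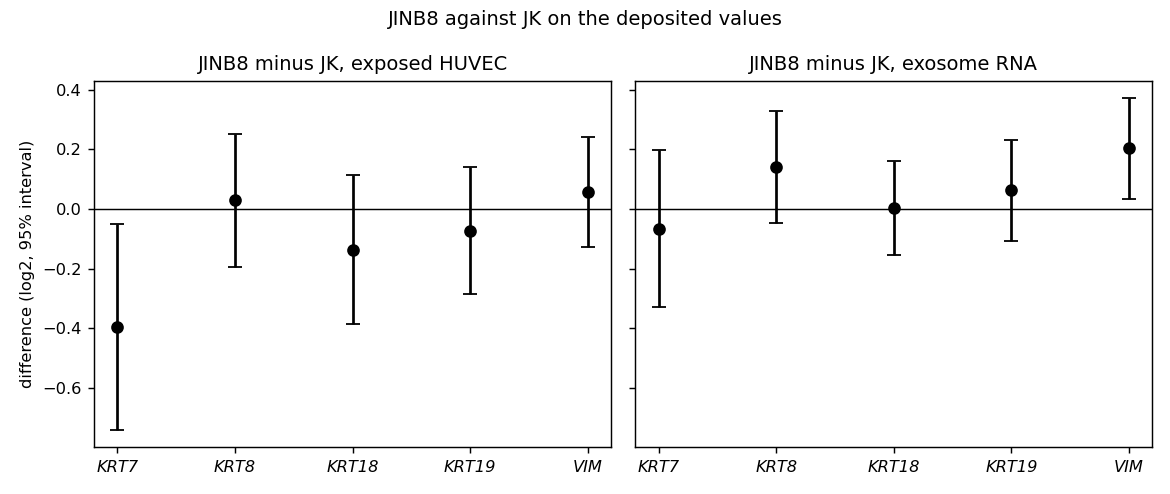
Difference of JINB8 from JK (log2, deposited values) for each member in exposed HUVEC (left) and in exosome RNA (right); points are limma estimates from 3 arrays per group and bars their 95% intervals. The intervals of KRT7 at left and VIM at right leave out 0 before adjustment over all genes, and the adjusted p-values are 0.494 and 0.462.

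Keratins 8, 18 and 19 have many pseudogene copies, so part of their signal may come from transcripts or genomic copies of like sequence, and which part was not tested. KRT18 had a second probeset with that symbol alone. It averaged 10.29 ± 0.37 in untreated, 8.38 ± 0.083 in JK-exposed and 8.23 ± 0.25 in JINB8-exposed HUVEC, then 7.19 ± 0.17 (JK) and 6.94 ± 0.44 (JINB8) in exosome RNA (deposited log2, SD, n = 3). Its difference from untreated cells, -0.46 and -0.61 after quantile normalization over all probesets, was close to that of the probeset used. In exosome RNA the JINB8 mean of the second probeset was below the JK mean, whereas the means of the probeset used were nearly equal.

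Of the pseudogenes, KRT8P41, KRT18P55 and KRT18P59 had probesets with their symbol alone. KRT8P41 averaged 6.96 in untreated, 5.46 and 5.38 in JK-exposed and JINB8-exposed HUVEC, with 6.00 (JK) and 6.01 (JINB8) in exosome RNA. Its quantile-normalized differences from untreated cells, 0.32 and 0.27, had the sign of those of KRT8. KRT18P55 differed by 0.45 and 0.42, against the sign of KRT18, and KRT18P59 by -0.07 and -0.19. KRT7 and VIM had no further probeset with their symbol alone, so their values rest on 1 probeset each.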

How the data were processed

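The deposited series table holds log2 values of 33297 probesets on 15 arrays; the log2 scale follows from their range. Per the submitters' processing notes the authors used Affymetrix Expression Console. The version of that tool, how background was corrected, and which arrays were normalized together and how are unknown here (not given in the sources used here). In the platform annotation 19460 probesets had 1 symbol, 1754 had several and 12083 were not listed. The gene reference changed 0 symbols, and 18417 genes remained. Groups came from the sample labels.

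Contrasts were fitted in limma 3.58.1 under R 4.3.3 (lmFit and eBayes), in 1 model over the 9 HUVEC arrays and another over the 6 exosome RNA arrays, with Benjamini-Hochberg adjustment over all genes and a threshold of 0.05. Comparisons with untreated HUVEC used values quantile-normalized over the 9 HUVEC arrays, the others the deposited values. The fit was tested on simulated data. The members, the lists and the tests were chosen with earlier results of these data known. Besides the members, the text names up to 3 highest and 3 lowest passing genes of a list per comparison, other probesets and pseudogenes of the members, and the nearest 5 genes to KRT7 and 3 to each other member. LMNB2 falls outside that rule and was chosen after its values were seen. Probesets with several symbols were not named. Promoter and protein sequences were not used.

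Alternatives were the deposited values, median centring, cyclic loess, quantile normalization, leaving out the 40% dimmest genes, averaging all probesets per gene, limma's trended and robust variance, the replicate number as a block, the compared arrays alone and leaving out each array. Arrays within a group correlated at 0.986 to 0.995, and no arrays were identical.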

Additional observations from a re-analysis of the deposited data

How the results depend on the processing

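Of 385 values recomputed under alternatives, 345 were rated unchanged, 25 moved and 15 turned sign. An unchanged member difference kept its direction, and moved by less than the replicate spread (against untreated cells) or kept its side of the threshold (elsewhere). A count of genes was rated unchanged within a set ratio of the main count, such as 10049 against 8950 (JK, median centring). On the deposited values 18319 (JK) and 18286 (JINB8) genes passed against untreated HUVEC, KRT7 differed by -5.55 and -5.94, and KRT8 turned to -1.01 and -0.985. Median centring gave -3.76 and -4.10 for KRT7 and turned VIM to 0.19 and 0.30. By construction these settings treat the array-wide shift differently. Between JINB8-exposed and JK-exposed HUVEC the count of 0 became 8 with median centring, 6 with cyclic loess, 8 without the 40% dimmest genes and 23 with trended and robust variance. Leaving out arrays gave 0 to 3 (1 without JK replicate 1, 3 without JK replicate 3 and 3 without JINB8 replicate 1), -0.0834 to 0.108 for KRT8 and -0.144 to 0.00052 for KRT19. In exosome RNA the near-zero KRT18 difference became -0.0922 (quantile), -0.00295 (median centring), -0.0445 (cyclic loess) and -0.125 (mean of its probesets). Leaving out arrays there gave -0.0188 to 0.0333 for KRT18, -0.203 to 0.0262 for KRT7 and 54 to 100 calls. After quantile normalization over 15 arrays untreated HUVEC was highest for 2 of 5 members. The cause of these changes was not tested. No pairing by replicate number was seen: same-numbered deviations correlated from -0.453 to 0.347, and different-numbered ones from -0.259 to 0.328. Deviations from the mean of only 3 arrays a group cannot exclude pairing. With the replicate block 8618, 8810, 0 and 104 genes passed in the 4 comparisons, and no call on a member changed between JINB8 and JK. Signal over background, on which the dim values of KRT7 in exposed cells rest, could not be judged.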

Other observations

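Marker lists of the cells involved gave further values beside the filament genes, on the quantile-normalized scale for the comparisons with untreated HUVEC. On that scale 26.2% of all genes rose and 22.4% fell with JK exosomes, and 26% rose and 23.3% fell with JINB8 exosomes. Of 14 endothelial markers 4 rose and 2 fell with JK exosomes, and 5 rose and 3 fell with JINB8 exosomes (medians 0.03 and 0.11 log2 units). After median centring 9 rose and 0 fell with JK exosomes, and 9 rose and 2 fell with JINB8 exosomes (medians 0.58 and 0.65, against 0.10 and 0.13 for all genes), so the balance rests on the scale. MMRN2, an endothelial matrix glycoprotein, rose by 1.36 ± 0.09 and 1.26 ± 0.09 (SE; limma adjusted p = 5.24e-07 and 8.62e-07), ERG, an endothelial transcription factor, by 0.61 and 0.87, and KDR, the main VEGF receptor, fell, with differences of -1.03 and -1.34, with JK exosomes not under median centring. Of 13 measured T cell markers 1 rose and 3 fell with JK exosomes, and 0 rose and 3 fell with JINB8 exosomes. Of these, 7 were brighter than 80% of genes in JK and in JINB8 exosome RNA, and 0 were in any HUVEC group. Of 10 mural and fibroblast markers 2 rose and 1 fell with JK exosomes, and 1 rose and 1 fell with JINB8 exosomes. After median centring these counts were 2 and 0 with JK and 3 and 0 with JINB8 exosomes.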
